A study of Mus musculus with 2 samples.

Results

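Cell adhesion genes were examined in a mouse comparison of liver metastases with primary tumours. The genes were those measured on both arrays whose current symbol names an integrin chain, a cadherin, a protocadherin, a Cadm molecule, a nectin, an Icam molecule, Vcam1, L1cam, Alcam, Epcam, Ncam1, Ncam2 or a syndecan, with Cdh5 left out. They numbered 75 of 13506 genes with a value on both arrays, each read by 1 probe. The symbol pattern also took in Itgbl1, Itgb1bp1, Itgb1bp2 and Itgb3bp, which are named after integrins and are not integrin chains, and they are described apart. The study injected Colon26 cells, a mouse colon carcinoma line, beneath the rectal mucosa of Balb/c mice, and compared RNA of the liver metastases, labelled with Cy3, with RNA of the primary tumours, labelled with Cy5. Array 1 and array 2 each held RNA from independently grown and harvested tissue of both kinds. No genotype, agent or age is given for the mice, and whether 1 animal or a pool gave the RNA of an array is not stated.

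Each value is a log ratio of the 2 channels, taken as log2. The sources used here state neither the log base nor the channel in the numerator, so values are placed on the positive or the negative side of the ratio and neither side is assigned to the metastases or the primary tumours. Cy3 held the metastases and Cy5 the primary tumours on both arrays, so that a difference between dyes and a difference between tissues cannot be told apart. The table holds ratios only, without levels, and whether a marker was present in the tissue could not be checked from it. Across all genes the median ratio was -0.02 on array 1 and -0.03 on array 2, with an SD of 0.51 and 0.55. In the limma test of the ratio against 0, called means an adjusted p below 0.05 over all genes. Hepatocyte markers, 5 measured of 8 listed, lay on both sides. Ttr at 0.80 and Trf at 0.68 were positive on both arrays. Alb at -0.34, Apoc3 at -0.51 and Fah at -0.95 were negative on both. Limma called 0 of the 5, beside 2.9% of all genes, and 4 had an unadjusted p below 0.05, beside 27.5%. The epithelial markers Krt19, Cldn4 and Cldn7 had 0.26, -0.48 and -0.49.

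Integrins are pairs of an alpha and a beta chain that bind matrix proteins or counter-receptors on other cells and link them to the actin cytoskeleton. Cadherins hold cells of like type together in a calcium-dependent way through catenins, and protocadherins are their relatives, many of them encoded in gene clusters and known best from neurons. The immunoglobulin adhesion molecules include the Cadm family and the nectins of epithelial contacts and the Icam family and Vcam1, which leukocyte integrins bind on vessel walls. Syndecans are transmembrane proteoglycans whose heparan sulfate chains bind matrix proteins and growth factors. Loss or exchange of such molecules is a much studied feature of invasion and metastasis in carcinoma.

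Of the 75 adhesion genes 6 were called, and all genes were called at a rate of 2.9% (391 of 13506). One of the 6 lay on the negative side, Cadm1, where 0.777% of all genes were called. The other 5, Icam2, Pcdhb2, Cdh6, Itgbl1 and Pcdh10, lay on the positive side, where the rate over all genes was 2.12%. Under 7 alternative settings between 0 and 5 of the 75 were called, and Cadm1 was called in 6 of the 7 settings, Pcdhb2 in 3, Icam2, Itgbl1 and Pcdh10 in 1 each and Cdh6 in 0. The adjusted p of 4 of the 6 lay between 0.0475 and 0.0493, and those of the next genes were 0.0529 for Pcdhb21 and 0.0599 for Cdh23. At least 1 unit from 0 with the same sign on both arrays were 4 adhesion genes, Cadm1, Icam2, Pcdhb2 and Itgb4, beside 2.27% of all genes. Of these, 3 lay above 0, beside 1.69% of all genes, and 1 below 0, beside 0.578%.

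The adhesion genes had no common side. Above 0 on both arrays were 29, against 33.9% of all genes, below 0 on both were 22, against 38.2% of all genes, and 24 had no common sign. Their median ratio was 0.02, with 0.00 on array 1 and 0.10 on array 2, and the median over all genes was -0.02. An unadjusted p below 0.05 was met by 25 adhesion genes and by 27.5% of all genes. The median distance of the mean from 0 was 0.31 in adhesion genes and 0.27 in all genes. Adhesion genes also differed more between the arrays, with a median SD of 0.24, beside 0.17 in all genes.

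**Figure D1:**
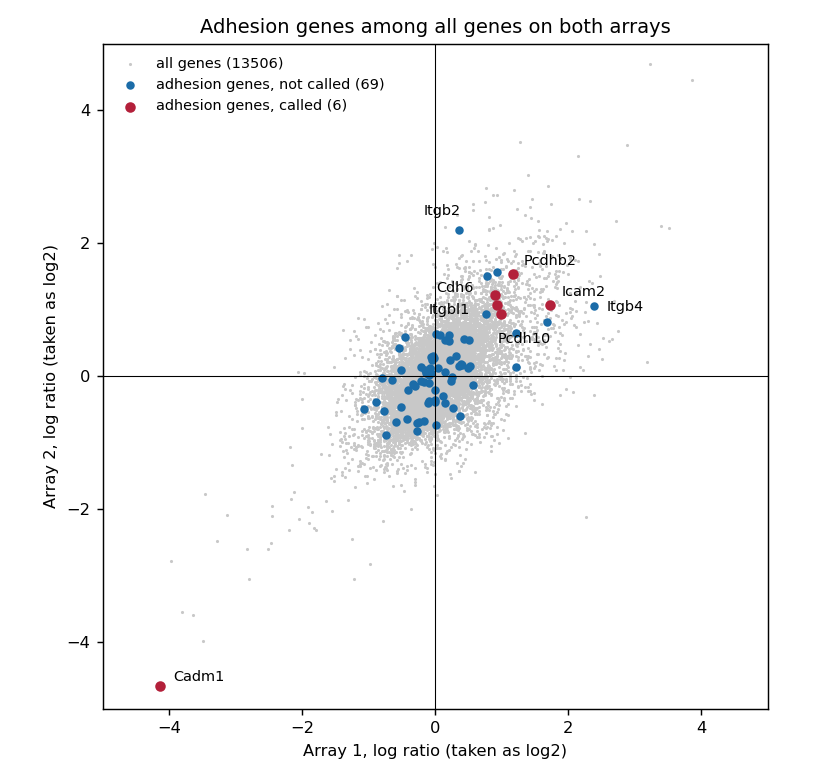
Log ratio of every gene on array 1 (horizontal axis) and array 2 (vertical axis), both taken as log2, with 13506 genes in grey, the 69 adhesion genes that were not called in blue and the 6 called in red. Cadm1 stands alone at the lower left, with -4.14 on array 1 and -4.66 on array 2, while most other adhesion genes lie within the cloud of all genes.

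By the mean of the 2 arrays Cadm1 lay farther from 0 than any other gene with a value on both, although Akr1c12, at 4.70 on array 2, was farther on that array alone. Cadm1, an immunoglobulin adhesion molecule of epithelial and neural contacts whose human counterpart is known as a tumour suppressor, had -4.14 on array 1 and -4.66 on array 2. Its mean was -4.40 ± 0.37 (SD, n = 2), which base 2 would make 21.1-fold, with a 95% limma interval from -4.88 to -3.91 and a limma adjusted p of 0.0119. Both arrays placed it on the negative side, and their difference was small beside the ratio. It was listed on the array under its older name, Igsf4a.

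The other members of the family lay much nearer 0 than Cadm1. Cadm4, an adhesion molecule of nerve and epithelium, had -0.80 on array 1 and -0.02 on array 2, and Cadm3, a mainly neural relative, had 0.01 and -0.74. Their means were -0.41 ± 0.55 and -0.36 ± 0.53 (SD, n = 2), and the upper ends of their 95% limma intervals were 0.17 and 0.21. Cadm2 had a value on array 1 only, 2.03, on the opposite side from Cadm1. Crtam, a receptor of T and NK cells that binds Cadm1, had -0.88 and -0.77, and its limma adjusted p of 0.0608 missed the threshold.

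The nectins lay close to 0. Nectins join neighbouring cells and are linked to actin by afadin. Nectin1 had 0.25 on array 1 and -0.01 on array 2, Nectin2 had -0.51 and 0.10, Nectin3 had 0.24 and -0.07, and Nectin4 had -0.09 and 0.03. The sign differed between the arrays for each of the 4, and their means ran from -0.21 to 0.12. The widest 95% limma interval among them, that of Nectin2, ran from -0.72 to 0.31. Pvr, a relative of the nectins outside the list of 75, was on the positive side on both arrays, with 0.44 and 0.50 and a limma adjusted p of 0.138.

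Among the Icam genes and Vcam1, Icam2 stood apart. Icam2, a ligand of the leukocyte integrin LFA-1 that is found on endothelium, platelets and leukocytes, had 1.73 on array 1 and 1.07 on array 2. Its mean was 1.4 ± 0.46 (SD, n = 2), which base 2 would make 2.64-fold, with a limma adjusted p of 0.0475. Both arrays were more than 1 unit above 0. Vcam1, the endothelial ligand of the integrin alpha 4 beta 1, had 0.31 and 0.30, with a mean of 0.31 ± 0.01 and a limma adjusted p of 0.250. Icam1, which inflammatory signals induce on many cell types, had -0.09 and -0.37, Icam4, known from red cells, had 0.57 and -0.13, and Icam5, a neuronal molecule, had 0.00 and -0.20. None of these was called.

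Endothelial markers were on the same side as Icam2. All 7 measured of 10 listed endothelial genes were positive on both arrays, with means from 0.14 for Kdr to 1.25 for Flt1 and a median of 0.54, beside 33.9% of all genes positive on both arrays. Of the 7, 2 were called, beside 2.9% of all genes. Cdh5, the vascular cadherin, had 0.21 on array 1 and 0.74 on array 2. In bulk tissue fewer cells of a type and less RNA per cell cannot be told apart, and the part of endothelial cells in the ratio of Icam2 was not tested.

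L1cam, Ncam2 and Epcam lay near 0. L1cam, a neural adhesion molecule that is also made at the invasive front of human colon cancers, had 0.12 on array 1 and -0.29 on array 2. Ncam2, a neural molecule, had -0.21 and -0.07. Epcam, an epithelial surface molecule much used to mark carcinoma cells, had 0.07 and 0.62, with a mean of 0.34 ± 0.39 (SD, n = 2) and a 95% limma interval from -0.15 to 0.84. Alcam and Ncam1 had no value on either array.

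Sdc4 was the syndecan farthest from 0. Sdc4, which acts with integrins in focal adhesions, had -0.74 on array 1 and -0.88 on array 2, with a mean of -0.81 ± 0.10 (SD, n = 2) and a limma adjusted p of 0.0629. Sdc1, the main syndecan of epithelium, had -0.21 and 0.14. Sdc2, a syndecan of mesenchymal cells, had -0.31 and -0.15, and Sdc3, a mainly neural one, had 0.40 and 0.16. The 2 arrays agreed in sign for Sdc2, Sdc3 and Sdc4. Of the 4 syndecans 0 were called, beside 2.9% of all genes, and 1 had an unadjusted limma p below 0.05, beside 27.5%.

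The enzymes that build and trim heparan sulfate included a called gene. Sulf2, an extracellular enzyme that removes sulfate from heparan sulfate chains, had -1.14 on array 1 and -1.34 on array 2, with a mean of -1.24 ± 0.14 (SD, n = 2) and a limma adjusted p of 0.0398. It was the 1 called gene among 57 measured partner genes of the adhesion molecules, beside 2.9% of all genes. Ext1 and Ext2, which together polymerise heparan sulfate, had -0.52 and -0.51 and -0.64 and -0.94. Adam17, a protease that sheds adhesion molecules from the cell surface, had -0.48 and -0.96, and Adam10, a sheddase of E-cadherin, had 0.10 and 0.05. Hpse, heparanase, had 0.04 and 0.17, and Extl3, a relative of Ext1, had 0.08 and 0.02. Of 10 measured genes in this list 6 were negative on both arrays, beside 38.2% of all genes, with a median of -0.25.

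**Figure D2:**
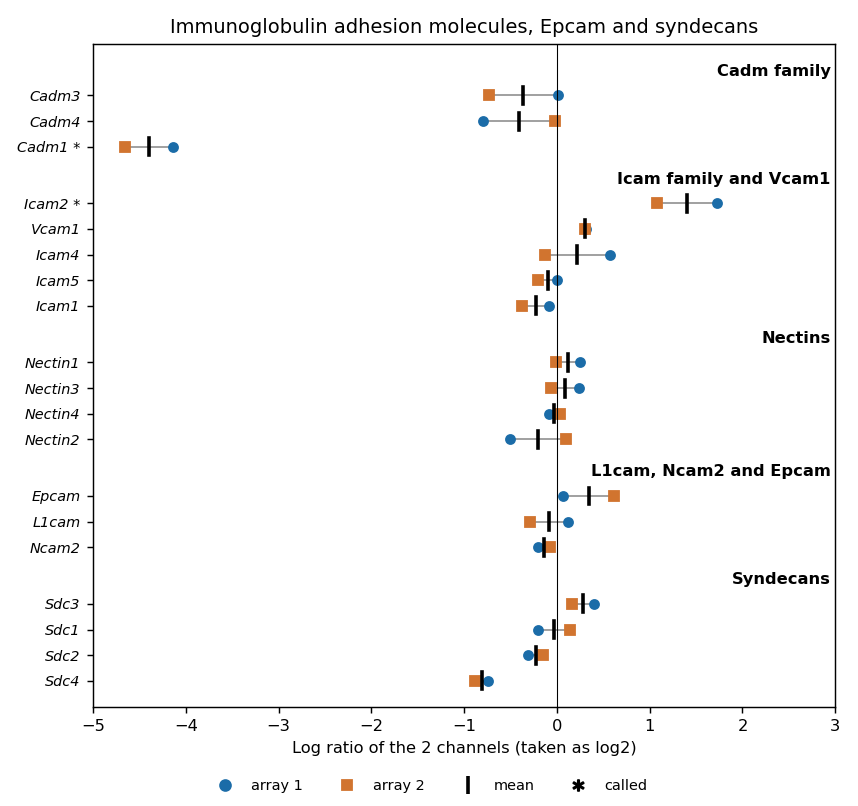
Log ratio (horizontal axis, taken as log2) of the immunoglobulin adhesion molecules, Epcam and the syndecans, 1 row per gene, with circles for array 1, squares for array 2, a black bar for the mean and a star for called genes. Cadm1 lies near -4.40, Icam2 near 1.4, and the 4 nectins cross 0.

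The cadherins held 1 called gene among 13 measured, Cdh6, beside 2.9% of all genes. Cdh6, a cadherin of kidney and neural development, had 0.89 on array 1 and 1.22 on array 2, with a mean of 1.05 ± 0.23 (SD, n = 2) and a limma adjusted p of 0.0493, and it lost its call in each of 7 alternatives. Cdh23, the tip-link cadherin of hair cells, had 0.76 and 0.94 and a limma adjusted p of 0.0599. These were the 2 cadherins farthest above 0, with both arrays close together. Cdh24 had 0.52 and 0.15 in the probe measured on both arrays, and its other probe had a value on array 2 only, 2.63.

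Cdh1 and Cdh2, cadherins of epithelial and mesenchymal identity, were near 0. Cdh1, E-cadherin of epithelial junctions, had -0.02 on array 1 and 0.28 on array 2, with a mean of 0.13 ± 0.21 (SD, n = 2) and a 95% limma interval from -0.29 to 0.55. Cdh2, N-cadherin, which carcinoma cells can gain as E-cadherin is lost, had -0.06 and 0.05, with an interval from -0.39 to 0.39. If the base is 2, both intervals leave room for less than 1 unit, a doubling, in either direction. The mean of Cdh2 was so close to 0 that its sign turned when the arrays were centred or scaled.

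Cdh10, Cdh4 and Cdh3 were negative on both arrays, and none of them was called. Cdh10, a neural cadherin, had -0.90 on array 1 and -0.39 on array 2. Cdh4, R-cadherin of retina and brain, had -0.25 and -0.69, and Cdh3, P-cadherin of basal epithelium and placenta, had -0.17 and -0.67. Their limma adjusted p ran from 0.121 for Cdh10 to 0.219 for Cdh3. Cdh13, a cadherin without a cytoplasmic tail, had -0.17 and -0.09. Cdh8 and Cdh19, both cadherins of the nervous system, and Cdh17, the liver-intestine cadherin, were positive on both arrays with means of 0.23, 0.09 and 0.10. Cdh26 had 0.00 and -0.39.

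Catenins, which tie cadherins to actin, lay near 0. Of 9 measured catenins and cadherin partners limma called 0, beside 2.9% of all genes. An unadjusted p below 0.05 was met by 1, beside 27.5% of all genes. This was Ctnnal1, a relative of alpha catenin, at 0.75 on array 1 and 0.46 on array 2. Ctnnb1, beta catenin, had 0.19 and -0.11, and Ctnnd1, p120 catenin, had 0.17 and -0.07. Ctnna1, alpha catenin of epithelium, had -0.35 and -0.27, and Jup, plakoglobin, had -0.19 and -0.22. Ctnna3, alpha catenin of heart and testis, had -0.09 and -0.33, and Pkp4, a relative of p120 catenin, had -0.28 and -0.03. The list had a median of -0.03.

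Protocadherins gave 2 called genes of 21 measured, Pcdhb2 and Pcdh10, both on the positive side, where 2.12% of all genes were called. Pcdh10, a protocadherin outside the clusters whose human gene is often methylated in gastrointestinal cancers, had 0.99 on array 1 and 0.93 on array 2. Its mean was 0.96 ± 0.04 (SD, n = 2), with a limma adjusted p of 0.0491, and it kept its call in 1 of 7 alternatives. Pcdh12, an endothelial protocadherin, had 0.43 and 0.56 and a limma adjusted p of 0.130. On the other side, Pcdh9, a neural protocadherin, had -0.78 and -0.53, with a limma adjusted p of 0.0934. Pcdh1, found in airway epithelium, had -0.65 and -0.06, and Pcdh8 had 0.00 and -0.36. Pcdh7 had -0.10 and -0.09, Pcdh15, a hair cell protein, had 0.35 and 0.15, and Pcdh18 and Pcdh19 had means of -0.04 and 0.10.

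Upstream sequence from RefSeq (GRCm38.p6) was held for 3 of the called genes that lay together on the positive side, Pcdh10, Cdh6 and Itgbl1, and is shown because methylation of CG dinucleotides there is a known route of silencing for the human counterpart of Pcdh10. Each line gives the 250 bases before the annotated start, 5′ to 3′ on the strand of the gene, with every CG dinucleotide in capitals. The window of Pcdh10 was chr3:45378148-45378397 on the plus strand, that of Cdh6 chr15:13173676-13173925 on the minus strand and that of Itgbl1 chr14:123659890-123660139 on the plus strand.
Pcdh10: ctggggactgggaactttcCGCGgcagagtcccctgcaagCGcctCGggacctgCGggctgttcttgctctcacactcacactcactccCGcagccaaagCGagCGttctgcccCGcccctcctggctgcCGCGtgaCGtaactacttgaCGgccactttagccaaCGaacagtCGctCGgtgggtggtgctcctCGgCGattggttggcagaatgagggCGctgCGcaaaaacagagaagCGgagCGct
Cdh6: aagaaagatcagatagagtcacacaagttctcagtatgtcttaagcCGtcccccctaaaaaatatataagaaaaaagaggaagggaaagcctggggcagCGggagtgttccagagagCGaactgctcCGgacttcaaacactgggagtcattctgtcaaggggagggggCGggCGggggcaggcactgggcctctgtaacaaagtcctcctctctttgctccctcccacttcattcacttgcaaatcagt
Itgbl1: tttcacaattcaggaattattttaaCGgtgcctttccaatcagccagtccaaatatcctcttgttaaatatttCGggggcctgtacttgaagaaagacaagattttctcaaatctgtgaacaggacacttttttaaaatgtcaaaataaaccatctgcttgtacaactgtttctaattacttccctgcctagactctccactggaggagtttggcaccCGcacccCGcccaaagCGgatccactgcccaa
The letters CG, which read the same on both strands, stood 22 times in the window of Pcdh10, and 14.8% of 32851 windows of the same length held at least as many. The window of Cdh6 held 6 and that of Itgbl1 held 5, numbers reached by 50.4% and 55.6% of the windows, whose median was 6. The 3 genes were taken from the called genes on the positive side, so their common side is not a result. Their windows differed in CG content, and a link between CG content and the ratio was not tested. Methylation was not measured in this study.

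**Figure D3:**
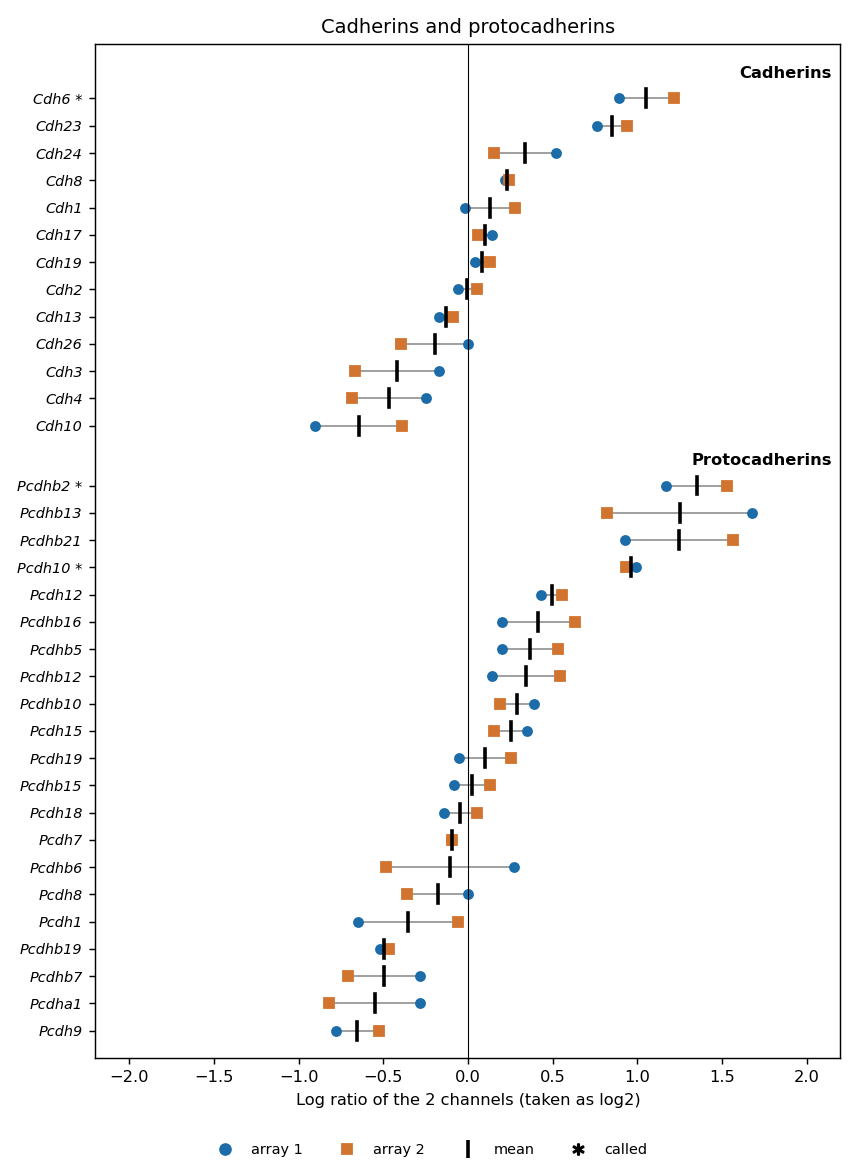
Log ratio (horizontal axis, taken as log2) of 13 cadherins and 21 protocadherins, 1 row per gene, with circles for array 1, squares for array 2, a black bar for the mean and a star for called genes. Cdh1 has a mean of 0.13 and Cdh2 lies at 0, and 3 Pcdhb genes lead the protocadherins with means of 1.25 to 1.35.

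The genes of the beta protocadherin cluster were spread over both sides. This cluster is a row of related single-exon genes for cell surface proteins that neurons use in varied combinations. Pcdhb2 had 1.17 on array 1 and 1.53 on array 2, with a mean of 1.35 ± 0.26 (SD, n = 2) and a limma adjusted p of 0.0398. Pcdhb21 had 0.93 and 1.57 (limma adjusted p = 0.0529), and Pcdhb13 had 1.68 and 0.82 (limma adjusted p = 0.0660). These 3 stood above the other cluster genes measured on both arrays, on array 1 as well as on array 2. Pcdhb5, Pcdhb10, Pcdhb12 and Pcdhb16 were positive on both arrays with means from 0.29 to 0.41. Pcdhb7 had -0.28 and -0.71 and Pcdhb19 had -0.52 and -0.47, while Pcdhb6 and Pcdhb15 had no common sign.

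Of 11 cluster genes measured on both arrays, 7 were positive on both, beside 33.9% of all genes, and 2 negative on both, beside 38.2%. Their median was 0.34, and that of all genes -0.02. In the order of the genes along the cluster, the high values of Pcdhb2, Pcdhb13 and Pcdhb21 were not next to each other, and Pcdhb19, on the negative side, lay 2 places from Pcdhb21. Pcdha1, the 1 gene of the alpha cluster measured, had -0.28 on array 1 and -0.82 on array 2. Because the cluster genes are related in sequence, a probe may read more than 1 of them, and the value of a single Pcdhb gene is uncertain. Neural and glial markers, 5 measured of 6 listed, did not share a side. Limma called 1 of the 5, Tubb3 at -1.07, beside 2.9% of all genes. Snap25 at -0.14 was also negative on both arrays, and Sox10 at 0.43 and Uchl1 at 0.11 were positive on both. Gfap had -0.08 on array 1 and 1.25 on array 2. The part of nerve tissue in the protocadherin ratios was not tested.

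**Figure D4:**
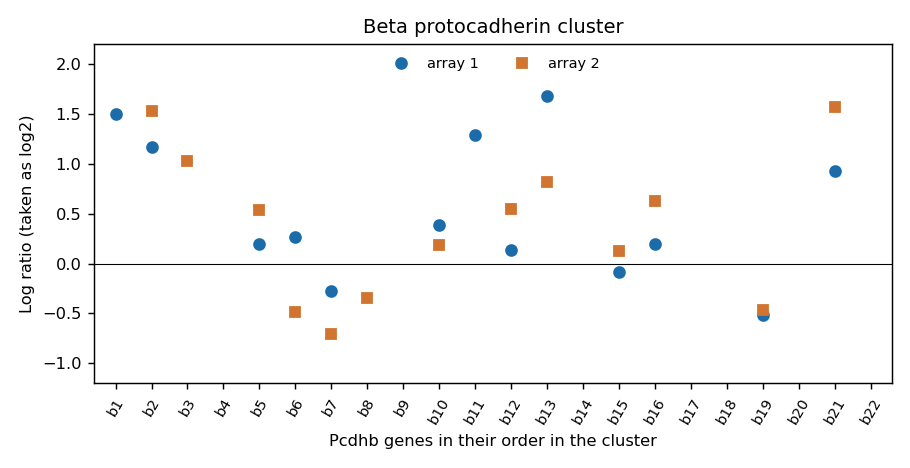
Log ratio (vertical axis, taken as log2) of the Pcdhb genes in their order along the cluster (horizontal axis, evenly spaced), with circles for array 1 and squares for array 2. A gap marks a gene without a value, and Pcdhb2, Pcdhb13 and Pcdhb21 are the genes with both values above 0.8.

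Of 18 integrin chains limma called 0, beside 2.9% of all genes, and 8 had an unadjusted p below 0.05, beside 27.5% of all genes. Itgb4, the beta chain of the laminin receptor in hemidesmosomes, had 2.39 on array 1 and 1.06 on array 2, a mean of 1.73 ± 0.94 (SD, n = 2), and a limma adjusted p of 0.0645. Itga6, the alpha chain that pairs with it, had 0.37 and -0.60. Itga6 minus Itgb4 was -2.02 on array 1 and -1.66 on array 2, so the ratios of the 2 chains differed in the same direction on both arrays. That difference was not tested. Itgb1, which also pairs with Itga6, had -0.06 and 0.30.

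Itgb2 and Itgax, chains of the leukocyte integrins, were positive on both arrays, and neither was called. Itgb2, the beta chain shared by the leukocyte integrins, had 0.36 on array 1 and 2.21 on array 2, with a mean of 1.28 ± 1.31 (SD, n = 2) and a limma adjusted p of 0.150. Array 2 alone put it more than 2 units from 0. Itgax, the alpha chain of dendritic cells and some macrophages, had 1.21 and 0.65 and a limma adjusted p of 0.0755. Itgam, the alpha chain of macrophages and neutrophils, had 2.51 on array 1 only, and Itgal, the alpha chain of LFA-1, had 1.81 on array 2 only. Of all probes with a value on 1 array 85.7% were above 0. Itga4, which lymphocytes use to bind Vcam1, had 1.21 and 0.14, and Itgb7, its partner in gut homing, had 0.49 and 0.13.

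Leukocyte markers lay only partly on the same side. Of the T and NK cell list 4 of 7 genes were measured, with means from 0.17 to 0.99. Cd2 had 0.82 on array 1 and 1.16 on array 2 and Cd5 had 0.68 and 1.26, while Cd3e, at 0.61 and -0.27, and Cd3d, at 0.40 and -0.06, had opposite signs on the arrays. Of the B cell list 3 of 4 were measured, with Cd79b at 0.91 and Cd79a at -0.29. Of the myeloid list 6 of 10 were measured, Itgax itself among them, 3 positive and 3 negative on both arrays, with S100a8 at -0.88, Csf1r at -0.23 and Mpo at 0.97. Of these 3 lists limma called 0 genes, beside 2.9% of all genes. An unadjusted p below 0.05 was met by 2, 2 and 3 of their measured genes, beside 27.5% of all genes. The part of leukocytes in the integrin ratios was not tested.

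The alpha chains of the fibronectin and vitronectin receptors were negative on both arrays, and neither was called. Itgav, the alpha chain of the vitronectin receptors, had -1.08 on array 1 and -0.50 on array 2, with a mean of -0.79 ± 0.41 (SD, n = 2) and a limma adjusted p of 0.0977. Itga5, the alpha chain of the classical fibronectin receptor, had -0.43 and -0.65. Their beta partners lay nearer 0, with Itgb3 at 0.14 and -0.41, Itgb5 at -0.16 and 0.10 and Itgb6, the epithelial partner of Itgav, at -0.11 and -0.39. Itgav was below each of Itgb1, Itgb3, Itgb5 and Itgb6 on both arrays, though on array 2 only slightly for Itgb3 and Itgb6. Itgav minus Itgb3 was -1.22 on array 1 and -0.09 on array 2, and Itgav minus Itgb6 was -0.97 and -0.10. Itgav minus Itgb1 was -1.02 and -0.79, and Itgav minus Itgb5 was -0.92 and -0.60. These differences were not tested. The ligands of these receptors had no common sign, as Fn1, fibronectin, had -0.31 and 0.05 and Vtn, vitronectin, had 0.21 and -0.50. Other genes of the ligand list with the same sign on both arrays were Nid1, nidogen of basement membranes, at -0.25 and -0.76, Thbs1, thrombospondin, at 0.38 and 0.39, and Cd96, a receptor for Pvr, at 0.02 and 0.15. Of 14 measured ligands limma called 0, beside 2.9% of all genes, with 4 at an unadjusted p below 0.05, beside 27.5%.

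Collagen and laminin receptor chains were divided. Of the laminin receptor chains described above, Itgb4 had 2.39 on array 1 and 1.06 on array 2, and Itga6 had 0.37 and -0.60. Itga10, a collagen receptor chain of cartilage, had 0.77 on array 1 and 1.52 on array 2, with a limma adjusted p of 0.0668, and Itga1, a collagen receptor chain, had 0.51 and 0.55, with a limma adjusted p of 0.115. Itga11, another collagen receptor chain, had 0.01 and 0.63. On the negative side, Itga7, a laminin receptor chain of muscle, had -0.59 and -0.69, with a limma adjusted p of 0.0901, and Itga3, a laminin receptor chain of epithelium, had -0.41 and -0.20. The arrays agreed in sign for Itga10, Itga1, Itga11, Itga7 and Itga3. Itga8, which pairs with Itgb1, had -0.03 and 0.31.

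The adaptors that join integrins to actin were more often negative than positive. Of 24 measured, 13 were negative on both arrays, against 38.2% of all genes, and 7 were positive on both, against 33.9%, with a median of -0.26. Tln1, talin, which activates integrins, had -0.71 on array 1 and -0.43 on array 2, Ptk2, focal adhesion kinase, had -0.41 and -0.58, and Src, a kinase that acts with it, had -0.30 and -0.75. Parvb and Lims2, partners of integrin-linked kinase, had -0.42 and -0.52 and -0.37 and -0.41, and Actn4, an actin crosslinker, had -0.36 and -0.60. The positive ones were led by Lims1, which binds integrin-linked kinase, at 0.42 and 0.76, and Tln2 at 0.34 and 0.73, followed by Crk at 0.18 and 0.24 and Nedd9 at 0.13 and 0.74. Ptk2b, a relative of Ptk2, had the adaptor mean farthest from 0, with -1.37 and -0.11 on arrays far apart. Limma called 0 of the 24, beside 2.9% of all genes, with 8 at an unadjusted p below 0.05, beside 27.5%.

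Among the 4 genes named after integrins 1 was called, Itgbl1, beside 2.9% of all genes. Itgbl1, a secreted protein with repeats like those of beta integrins, had 0.93 on array 1 and 1.07 on array 2, with a mean of 1.00 ± 0.10 (SD, n = 2) and a limma adjusted p of 0.0475. Itgb1bp1, a cytoplasmic protein that binds the tail of the beta 1 chain, had -0.34 and -0.12. Itgb1bp2, melusin of muscle, had -0.54 and 0.42, and Itgb3bp, a centromere protein, had -0.45 and 0.60. The last 2 had opposite signs on the 2 arrays.

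**Figure D5:**
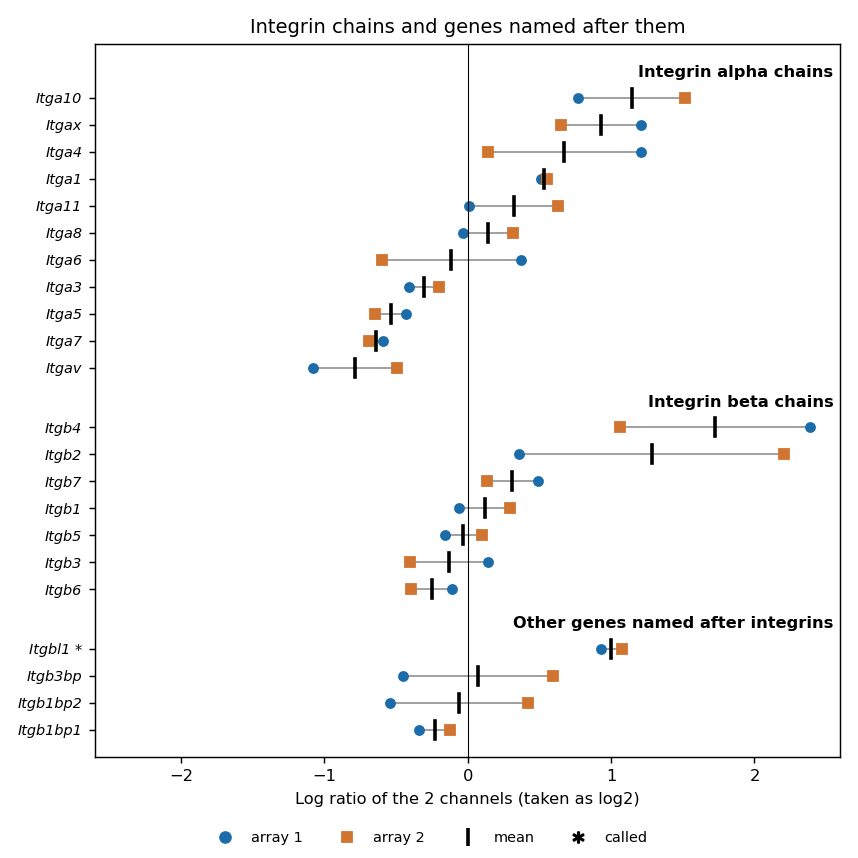
Log ratio (horizontal axis, taken as log2) of 11 integrin alpha chains, 7 beta chains and 4 other genes named after integrins, 1 row per gene, with circles for array 1, squares for array 2, a black bar for the mean and a star for called genes. Itgb4 and Itgb2 have the highest means of the chains, 1.73 and 1.28, and also the widest gaps between arrays.

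On the platform 106 genes matched the symbols, and 31 had no value on both arrays, of which 19 had a value on 1 array and 12 on neither. The 20 probes with a value on 1 array, among them the second probe of Cdh24, were mostly on the positive side, 18 above 0 and 2 below. The same held for all 2302 such probes in the table, of which 85.7% were above 0. Without a value on either array were Itga2 and Itga9, alpha chains of a collagen receptor and a tenascin receptor, Itgb2l, Alcam, Ncam1, Cdh20, Pcdh11x and 5 Pcdhb genes.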

How the data were processed

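The 2 dual-channel arrays held liver metastasis RNA in Cy3 and primary tumour RNA in Cy5, amplified as amino-allyl aRNA per the labels. The authors deposited 1 log ratio per probe and array, which was taken as log2 here. For its base, direction, background correction, spot filter and normalization the entry is not given in the sources used here. Precision is limited by having 2 arrays.

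Of 23473 probes, 18837 had both values. Symbols were updated through RefSeq names and unique synonyms (GRCm38.p6), and probes of a gene were averaged. The probes' genome build is not stated, so array genes have no coordinates. Limma 3.58.1 (R 4.3.3; lmFit and eBayes, with 1 residual and 4.06 prior degrees of freedom) compared each gene's ratio with 0, with Benjamini-Hochberg adjustment over all 13506 genes. The fit was also run on simulated normal values drawn from its own fitted prior, which checks the code and not the calls. Over genes the correlation of the arrays was 0.615 (Pearson), with genes not independent.

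Members and lists were chosen with earlier results of these data known. Values per array are given for called members, those at least 1 unit from 0 on both arrays, up to 4 per class and side, and all members of small classes. Partner genes are named where called, or where among the up to 4 of each list and side whose nearer array lay farthest from 0. Markers and the partner genes Ctnnb1, Ctnnd1, Fn1, Vtn, Src, Actn4 and Ptk2b were named for their role or after their values were seen. Alternatives were centring, scaling, quantile normalization, a minimum fold of 1.2, no moderation, a robust prior, a fit on probes and each array alone. Figures were drawn with matplotlib 3.10.9.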

Additional observations from a re-analysis of the deposited data

Results flagged for a closer look

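A value on 1 array and none on the other kept 20 probes of adhesion genes out of every test, and 10 of them lay at least 1 unit above 0, with 0 at least 1 unit below. On array 1 alone these were Itgam at 2.51, Cadm2 at 2.03, Pcdhb1 at 1.5 and Pcdhb11 at 1.29. On array 2 alone they were the second probe of Cdh24 at 2.63, Itga2b, the platelet integrin chain, at 2.14, Itgal at 1.81, Pcdh17 at 1.34, Cdh11, a cadherin of mesenchymal cells, at 1.23 and Pcdhb3 at 1.03. Of all 2302 probes with a value on 1 array, 43.1% were at least 1 unit above 0, so the 10 of 20 are near that share. These values have no replicate.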

How the results depend on the processing

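The called adhesion genes numbered 6, and 5 after centring, 2 with the arrays scaled to equal spread, 1 after quantile normalization, 1 when the test required a minimum fold of 1.2, 0 without moderation, 2 with a robust prior and 1 in the fit on probes. All genes gave 391 calls in limma, 362 after centring, 267 with a robust prior, 245 with scaled arrays, 4 after quantile normalization, 108 with the minimum fold, 0 without moderation and 161 in the fit on probes, and 3717 genes had an unadjusted p below 0.05. The 1 called partner gene, Sulf2, became 0 after quantile normalization, with the minimum fold, without moderation and in the fit on probes. Without moderation 1 residual degree of freedom is left for each gene. The adhesion genes at least 1 unit from 0 numbered 4 on both arrays, and 8 to 9 on a single array. Their median, 0.02, ranged from 0.00 to 0.10 with an array left out. Cdh2 turned to 0.022 after centring and 0.017 after scaling, and no other of the 75 genes turned sign in the 7 settings with a test. The test of each ratio within an array already sets the 2 tissues of that array against each other, so no further block by replicate number could be fitted.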

Other observations

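Adhesion genes outside the symbol pattern, listed with earlier results of these data known, showed a like mixture. Of 11 measured tetraspanins, membrane proteins that organise integrins, limma called 0, beside 2.9% of all genes. An unadjusted p below 0.05 was met by 4, beside 27.5% of all genes. Cd37, a tetraspanin of leukocytes, had 1.28 on array 1 and 3.53 on array 2, the same pattern of a higher array 2 as Itgb2. Tspan9 had -0.77 and -1.24, and Cd151, which binds laminin receptors, had -0.39 and -0.44.

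Of 8 measured selectins and related genes limma called 1, beside 2.9% of all genes. This was Sele, E-selectin of activated endothelium, at 1.00 on array 1 and 0.90 on array 2. Its limma adjusted p of 0.0499 was just below the threshold. Selp, P-selectin, had 0.72 and 0.60, and Cd34, a sialomucin of vessels, had 0.57 and 0.55. Podxl, another sialomucin of vessels and podocytes, had -0.38 and -0.61. Limma called 0 of 6 cadherin relatives and 0 of 14 other immunoglobulin adhesion genes. An unadjusted p below 0.05 was met by 2 and 5 of them, beside 27.5% of all genes. Dchs1, a large cadherin of planar polarity, had -0.61 and -0.88, and Gpa33, an antigen of intestinal epithelium, had 0.94 and 0.36.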
